A study of Mus musculus with 6 samples.

Results

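The genes described here are 43 regulators of DNA methylation and of the Polycomb and Trithorax systems, chosen by gene name from the 27198 genes of the deposited expression table, and all 43 were found. They comprised the DNA methyltransferases and TET enzymes, the subunits of Polycomb repressive complexes 1 and 2 (PRC1 and PRC2), the PR-DUB deubiquitinase, the Trithorax-type methyltransferases with menin, DOT1L, and the KDM5 and KDM6 demethylases. Their RNA was measured in hematopoietic stem cells (HSCs) from the bone marrow of wild-type male C57BL/6 mice 8 to 10 weeks old. The mice received either vehicle (Ctrl) or long-term ferulic acid (l-FA), a plant antioxidant, injected intraperitoneally at 50 mg/kg once daily for 30 days. There were 3 libraries per group. The number of mice behind each library is not given in the sources used here, so p-values measure only the spread between these libraries, which may be technical. Replicates of a group are written below as Ctrl 1 to Ctrl 3 and l-FA 1 to l-FA 3.

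DNA methyltransferases place methyl groups on cytosines, mainly at CpG dinucleotides, and TET enzymes oxidise them, which starts their removal. PRC2 methylates histone H3 at lysine 27, PRC1 ubiquitinates histone H2A and compacts chromatin, and both hold genes in a silent state, whereas Trithorax-type complexes methylate H3 at lysine 4 and keep genes active. In HSCs these systems are known for their part in self-renewal and lineage choice, and several of their genes, among them Dnmt3a, Tet2, Asxl1 and Kmt2a, are recurrently altered in blood cancers.

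The sorted phenotype excluded lineage-positive, CD34-positive and CD135-positive cells, but the RNA of the excluded surface proteins was abundant. Cd34 had 25402 to 26391 counts in Ctrl and 31566 to 32430 in l-FA, and Flt3, which encodes CD135, had 14232 to 15060 and 23834 to 24368. Here higher and lower mean called by the edgeR test described below, as were 25.5% and 25.0% of all genes tested. Of 12 HSC markers, 8 were higher and 1 was lower in l-FA, although Slamf1 had only 32 to 51 counts in Ctrl. Of the markers of granulocytes and monocytes, 11 of 13 were lower and 2 higher, with a summed level of 23700 to 24540 CPM (counts scaled to library size) in Ctrl and 6214 to 6527 CPM in l-FA. Of the replication genes, 8 of 16 were lower and 0 higher (summed level 6679 to 6730 CPM in Ctrl, 6163 to 6312 CPM in l-FA), and of the mitosis genes 7 of 16 were lower and 3 higher. Among tested markers of other lineages, 1 of 4 B cell genes was higher and 0 lower (Pax5 had 0 to 1 counts and was not tested). Only 2 of the 7 listed T and NK cell genes were tested, Nkg7 and Klrb1c, and both were lower. Cd3e, Cd3d, Cd8a and Trac had too few counts and Cd3g was absent. Of the erythroid genes 3 of 8 were higher and 1 lower, and of the megakaryocyte genes 3 of 6 were higher and 0 lower. These differences ran alongside every comparison given here, and their part in the results was not tested.

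Differences between the groups were tested on the counts with edgeR's quasi-likelihood test across the 16520 genes with enough counts, and a gene was called at a Benjamini-Hochberg adjusted p under 0.05. All 43 regulators entered the test, with mean counts per library from 22.3 for Pcgf2 to 17929 for Dnmt1. Of these, 10 were called higher in l-FA and 9 lower, that is 44.2% of the 43, whereas 50.5% of all genes tested were called (25.5% higher and 25.0% lower). The share of called regulators was therefore not above that of the whole table. In bulk RNA of this kind, fewer cells of a type and less RNA per cell cannot be told apart.

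The changes were small. The called rises ran from 0.20 to 0.66 on the log2 scale and the called falls from -0.55 to -0.11. None of the 43 passed the threshold with a change of more than 2-fold in edgeR or in DESeq2 (1, Suz12, at an unadjusted edgeR p under 0.05), against 11.8% of all genes tested and 3.90% of the 11428 genes averaging 100 counts or more per library, a level that 42 of the 43 reached. The median size of the log2 fold change was 0.23 for the regulators, 0.24 for genes averaging 100 counts or more and 0.29 for all genes tested. The signed median was 0.02 for the regulators and 0.00 for all genes tested. The l-FA libraries lay entirely above or entirely below the Ctrl libraries for 24 regulators (55.8%), and for 60.3% of all genes tested. The split of calls depended on the scaling, since scaling to total counts in place of TMM factors gave 12 higher and 5 lower.

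**Figure D1:**
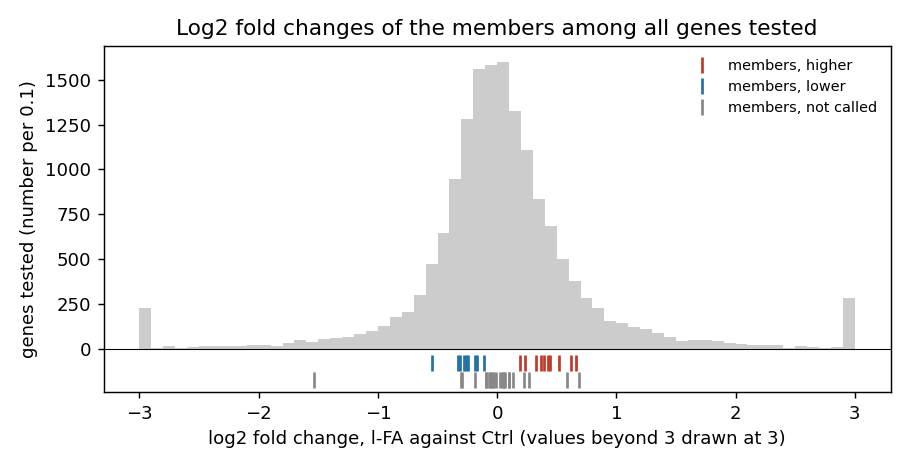
Histogram of the log2 fold change of l-FA against Ctrl over the 16520 genes tested (horizontal axis, with values beyond 3 drawn at 3; vertical axis, genes per interval of 0.1), with the 43 regulators marked beneath it. The regulators lie near the centre, and the one mark beyond -1 is Suz12, which was not called (adjusted p = 0.0748, edgeR).

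The plot by role shows calls in both directions across the system. The PCGF subunits of PRC1 had 3 members lower and 0 higher of 5, and the KDM5 demethylases 2 higher and 0 lower of 3. The TET enzymes, PRC2, the CBX readers and the Trithorax group each had 1 member higher and 1 lower, of 3, 5, 4 and 7 members. Among these roles the share called ran from 28.6% (Trithorax group) to 66.7% (TET and KDM5 enzymes), against 50.5% of all genes tested. With 3 to 7 genes per role, no difference between roles was tested.

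**Figure D2:**
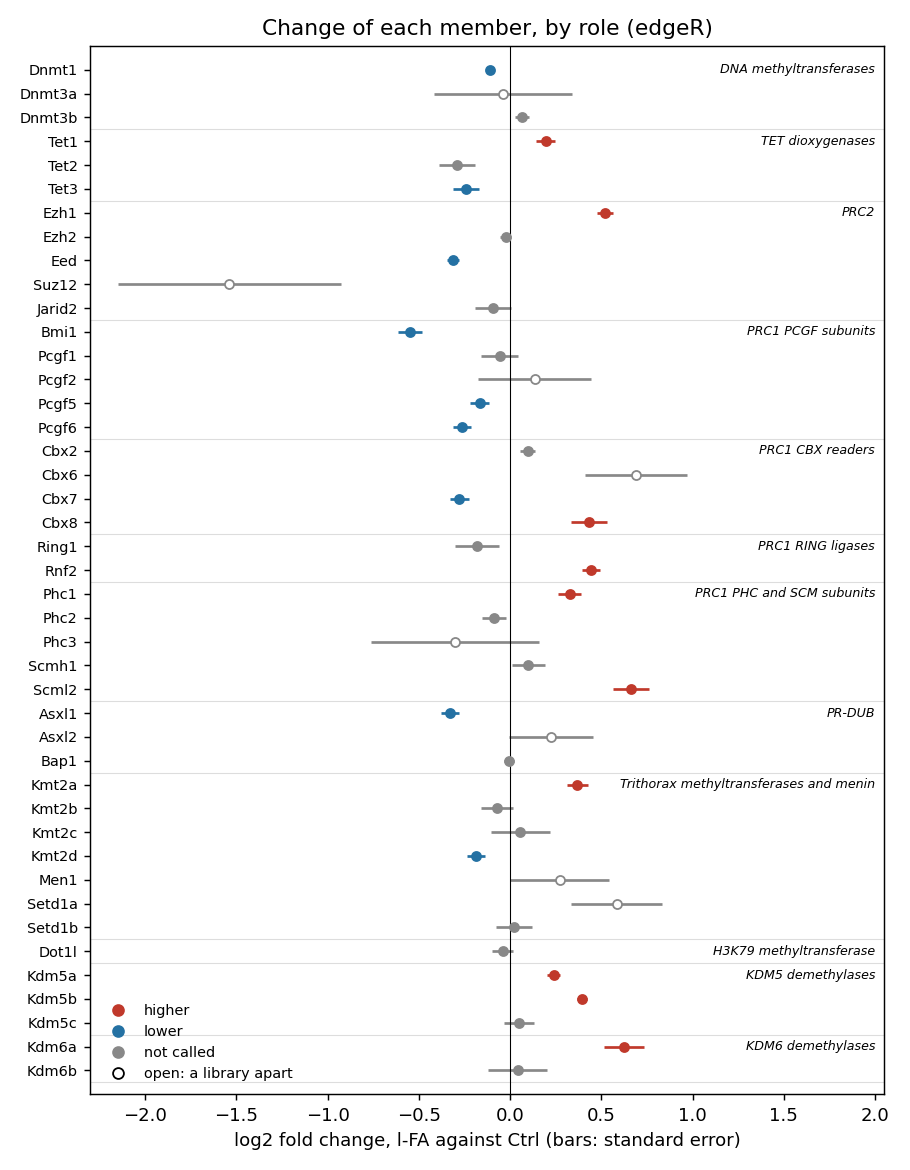
Log2 fold change of l-FA against Ctrl for each of the 43 regulators (points) with its standard error (bars), arranged by role and coloured by call at an edgeR adjusted p under 0.05. Open points mark the 8 genes with a library 1.5-fold or more away from the other libraries of the group, and these carry the widest bars, with standard errors from 0.23 to 0.61.

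The promoters of Ezh1, Ezh2, Cbx7 and Cbx8 are printed here because they belong to pairs of paralogs that the results below turn on. These are the 250 bases before the start of Ezh1 and Ezh2, the alternative catalytic subunits of PRC2, and of Cbx7 and Cbx8, alternative readers of PRC1. The sequences are from RefSeq on GRCm38.p6, read 5′ to 3′ on the gene's own strand, which is the minus strand for all 4: Ezh1 at chr11:101226464-101226713, Ezh2 at chr6:47595031-47595280, Cbx7 at chr15:79932647-79932896 and Cbx8 at chr11:119040914-119041163. Capitals mark CCAAT, the NF-Y box, on either strand (ATTGG on the other).
Ezh1: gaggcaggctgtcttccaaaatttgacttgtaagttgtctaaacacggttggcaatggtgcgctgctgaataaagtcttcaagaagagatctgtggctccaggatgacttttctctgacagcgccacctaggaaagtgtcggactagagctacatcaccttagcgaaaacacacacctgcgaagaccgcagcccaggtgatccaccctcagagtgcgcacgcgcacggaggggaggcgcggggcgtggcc
Ezh2: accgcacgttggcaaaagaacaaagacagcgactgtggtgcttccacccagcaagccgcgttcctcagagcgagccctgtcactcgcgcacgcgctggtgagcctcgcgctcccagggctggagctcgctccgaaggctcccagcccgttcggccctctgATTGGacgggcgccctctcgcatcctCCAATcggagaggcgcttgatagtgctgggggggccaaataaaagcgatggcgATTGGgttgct
Cbx7: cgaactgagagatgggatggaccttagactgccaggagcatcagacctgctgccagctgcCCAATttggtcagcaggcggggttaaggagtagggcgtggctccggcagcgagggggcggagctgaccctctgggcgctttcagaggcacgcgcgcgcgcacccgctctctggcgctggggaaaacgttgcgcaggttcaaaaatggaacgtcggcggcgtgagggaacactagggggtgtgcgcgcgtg
Cbx8: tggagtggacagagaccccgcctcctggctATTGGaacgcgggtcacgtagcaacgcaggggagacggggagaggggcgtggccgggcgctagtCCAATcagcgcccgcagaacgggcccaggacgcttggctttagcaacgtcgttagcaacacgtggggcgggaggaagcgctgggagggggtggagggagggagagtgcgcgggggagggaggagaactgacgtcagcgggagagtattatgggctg
Ezh1 held 14 CpG dinucleotides in this window and no CCAAT box, and Ezh2 held 23 CpG and 3 boxes. Cbx7 and Cbx8 held 23 and 22 CpG, with 1 and 2 boxes. A promoter was matched for 37 of the 43 regulators, not for Cbx2, Kdm5a, Kdm6b, Kmt2b, Pcgf1 and Setd1b. Some genes have several listed starts and so several windows, 49 for the 37 regulators and 32851 for the 27025 genes of the whole RefSeq table, and each gene was counted once. The median over genes of the highest CpG number in any of a gene's windows was 22 for the 37 regulators and 6 for all genes. CCAAT occurred in at least 1 window of 29.7% of the 37 and 37.5% of all genes. On either strand, the ETS motif CCGGAAG occurred in 10.8% and 7.83% and the E2F motif (TTTCCCGC or TTTGGCGC) in 2.70% and 1.51%. Neither of these occurred in the 4 printed windows. A match describes letters, not binding.

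Dnmt1, the maintenance methyltransferase that copies methylation to new DNA strands, was the most abundant of the 43. Its level was 938.5, 953.8 and 929.7 CPM in Ctrl 1 to 3 and 870.8, 874.5 and 872.3 CPM in l-FA 1 to 3. The groups did not overlap, and Dnmt1 fell by 0.11 on the log2 scale (SE 0.017, adjusted p = 0.00198, edgeR). With total-count scaling it was not called, at -0.03. The summed level of the replication genes was lower in l-FA as well, as given above, and its part in this difference was not tested.

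Of the de novo methyltransferases, Dnmt3b measured 141.6, 154.2 and 143.3 CPM in Ctrl and 151.1, 153.5 and 154.2 CPM in l-FA. These ranges overlapped (log2 fold change 0.06, SE 0.039, adjusted p = 0.222, edgeR), but without Ctrl 2 the log2 fold change was 0.10 and passed (adjusted p = 0.0364), and with total-count scaling it was 0.14 and passed (adjusted p = 0.0165). Dnmt3a measured 104.0, 51.51 and 106.3 CPM in Ctrl and 101.4, 47.47 and 105.9 CPM in l-FA. Thus the second library of each group was low and the other libraries were alike, and the interval of 2 standard errors around its log2 fold change ran from -0.80 to 0.72. Per kilobase, with gene lengths implied by the table, Dnmt1 made up 83.8% ± 0.50 (n = 3, SD) of the DNMT family level in Ctrl and 82.3% ± 0.92 in l-FA. With the longest annotated transcript as length these shares were 78.9% ± 0.86 and 77.1% ± 1.4.

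The 3 TET genes each had groups that did not overlap, which also held for 60.3% of all genes tested, and their directions differed. Tet1 measured 26.94, 26.32 and 27.46 CPM in Ctrl and 29.67, 31.76 and 31.04 CPM in l-FA, a rise of 0.20 (SE 0.052, adjusted p = 0.0194, edgeR). Tet3 measured 56.23, 57.99 and 53.36 CPM in Ctrl and 49.24, 49.56 and 42.91 CPM in l-FA, and fell by 0.24 (SE 0.069, adjusted p = 0.0248), a call lost with total-count scaling. Tet2 was lower in all 3 l-FA libraries, at 12.24, 10.67 and 11.52 CPM against 14.17, 15.44 and 12.55 CPM, but did not pass the threshold (log2 fold change -0.29, SE 0.10, adjusted p = 0.0519). These values lay near the threshold, and some calls changed when a library was left out, which also leaves fewer libraries to test. Adjusted p for Tet1 was 0.0549 without Ctrl 2 and 0.0541 without l-FA 2 (edgeR). For Tet3 it was 0.0668 without Ctrl 1 and 0.0776 without Ctrl 2, and for Tet2 0.0254 without Ctrl 3 (edgeR). Over all such omissions the log2 fold change ran from 0.179 to 0.237 for Tet1, -0.28 to -0.165 for Tet3 and -0.373 to -0.221 for Tet2. The share of Tet1 in the TET family level per kilobase was 21.0% ± 1.2 in Ctrl and 26.5% ± 1.7 in l-FA (n = 3, SD), and the groups did not overlap.

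Within PRC2 the catalytic subunits behaved differently. Ezh1 (chromosome 11, 101081941 to 101117289 as the table lists it) encodes the subunit that persists in resting cells. It measured 75.2, 82.65 and 77.05 CPM in Ctrl and 110.5, 113.1 and 113.4 CPM in l-FA. Every l-FA library was above every Ctrl library, and Ezh1 rose by 0.52 (SE 0.043, adjusted p = 0.000171, edgeR). Ezh2, the subunit typical of dividing cells, measured 135.9, 135.1 and 135.2 CPM in Ctrl and 134.0, 129.4 and 135.7 CPM in l-FA. The fitted change was -0.03, with an interval of 2 standard errors from -0.08 to 0.03. Per kilobase, Ezh1 made up 32.0% ± 1.1 of the pair in Ctrl and 40.7% ± 0.73 in l-FA (n = 3, SD), or 27.7% ± 1.0 and 35.9% ± 0.69 with the longest transcript as length.

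Of the other PRC2 subunits, Eed fell, and the size of the Suz12 change hung on 1 library. Eed, which binds trimethylated H3 lysine 27, measured 107.2, 101.5 and 105.6 CPM in Ctrl and 85.86, 83.37 and 83.72 CPM in l-FA, and fell by 0.31 (SE 0.035, adjusted p = 0.000532, edgeR). Suz12, the scaffold of the complex, measured 12.25, 53.33 and 12.35 CPM in Ctrl and 9.381, 9.623 and 7.761 CPM in l-FA. Ctrl 2 alone was high, and the fitted log2 fold change was -1.54 (SE 0.61, adjusted p = 0.0748). Without Ctrl 2 it was -0.46 (SE 0.12) and passed the threshold (adjusted p = 0.0265). Without Ctrl 1 or without Ctrl 3 it was -1.88 and also passed, with adjusted p = 0.0437 and 0.0442 (edgeR). Jarid2, an accessory subunit, was not called (log2 fold change -0.10).

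PRC1 variants are defined by their PCGF subunit, and 3 of the 5 PCGF genes among the 43 were called lower and 0 higher. Over all genes tested, 25.0% were called lower and 25.5% higher, and the difference from these 5 genes was not tested. Bmi1 (chromosome 2, 18681829 to 18691440), the PCGF subunit known for HSC self-renewal, measured 37.89, 42.45 and 39.5 CPM in Ctrl and 25.95, 29.02 and 26.99 CPM in l-FA. The groups were far apart, and Bmi1 fell by 0.55 (SE 0.067, adjusted p = 0.000792, edgeR), the largest called fall among the 43. Pcgf6 fell by 0.27 (adjusted p = 0.00421), and Pcgf5 by 0.17 (adjusted p = 0.0295), a call that held in only 5 of 13 alternative settings and in 1 of the 6 that left out a library (without Ctrl 2). Pcgf1, of the BCOR-containing variant, was not called (-0.06). Pcgf2, the closest relative of Bmi1, was the least abundant regulator, at 1.459, 0.9647 and 0.8031 CPM in Ctrl and 1.191, 0.8476 and 1.502 CPM in l-FA. The interval of 2 standard errors around its log2 fold change ran from -0.49 to 0.75.

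Pcgf3, not among the 43 but of the same family, rose by 0.70 (SE 0.053, adjusted p = 0.000117, edgeR), from 17.62 to 18.19 CPM in Ctrl to 28.37 to 29.69 CPM in l-FA. In the PCGF family level per kilobase, the share of Bmi1 was 30.5% ± 1.1 in Ctrl and 23.4% ± 1.3 in l-FA, and that of Pcgf3 8.74% ± 0.30 and 16.0% ± 0.58 (n = 3, SD). With the longest transcript as length these shares were 23.2% ± 0.84 and 18.1% ± 1.1 for Bmi1 and 4.83% ± 0.17 and 8.96% ± 0.37 for Pcgf3. The libraries of the groups did not overlap for either share, whereas those of Pcgf1, Pcgf2, Pcgf5 and Pcgf6 overlapped.

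The CBX proteins read trimethylated H3 lysine 27 and place canonical PRC1 on it. Cbx7, the reader linked to stem cell self-renewal, measured 33.4, 31.68 and 32.73 CPM in Ctrl and 25.95, 27.67 and 26.94 CPM in l-FA, and fell by 0.28 (SE 0.052, adjusted p = 0.00443, edgeR). Cbx8, a reader linked to differentiation, measured 14.49, 15.27 and 17.42 CPM in Ctrl and 21.29, 22.84 and 19.48 CPM in l-FA, and rose by 0.43 (SE 0.098, adjusted p = 0.0102). Neither pair of groups overlapped, so these readers changed in opposite directions. Cbx6 measured 38.98, 85.97 and 85.73 CPM in Ctrl and 114.1, 114.5 and 111.6 CPM in l-FA, with Ctrl 1 far below the rest. The log2 fold change was 0.69 (SE 0.28, adjusted p = 0.0823) and, without Ctrl 1, 0.40 (SE 0.036, adjusted p = 0.000972). Cbx2 was not called (0.10, adjusted p = 0.104), except with total-count scaling.

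**Figure D3:**
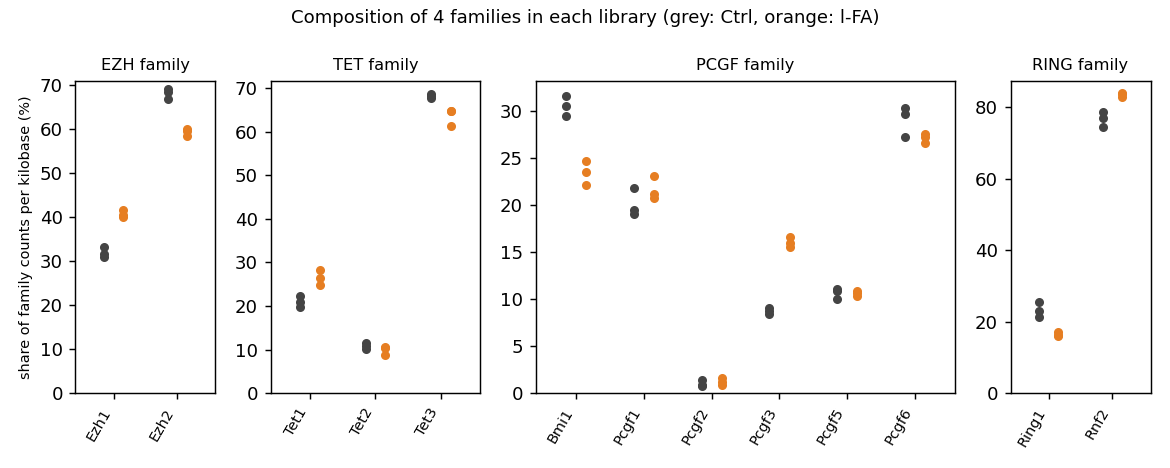
Share of the family level per kilobase (vertical axis, percent) taken by each gene in each library of the EZH, TET, PCGF and RING families, with Ctrl in grey and l-FA in orange. Ezh1, Tet1, Pcgf3 and Rnf2 take a larger share and Ezh2, Tet3, Bmi1 and Ring1 a smaller share in every l-FA library than in any Ctrl library.

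The RING proteins carry the ubiquitin ligase activity of PRC1. Rnf2, which encodes RING1B, measured 91.04, 95.45 and 94.31 CPM in Ctrl and 129.8, 133.3 and 119.1 CPM in l-FA, and rose by 0.45 (SE 0.049, adjusted p = 0.000514, edgeR). Ring1 measured 16.47, 21.76 and 18.82 CPM in Ctrl and 16.52, 18.3 and 15.47 CPM in l-FA, with overlapping groups (-0.18, adjusted p = 0.252). Rnf2 thus held 76.8% ± 2.1 of the pair's level per kilobase in Ctrl and 83.6% ± 0.53 in l-FA (n = 3, SD). Trmt1l, which overlaps Rnf2 on the genome, moved the other way (-0.22, adjusted p = 0.0307).

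Among the PHC and SCM subunits, which let PRC1 polymerise, Scml2 (chromosome X, 159865521 to 160041209) had the largest called rise of the 43. It measured 5.576, 6.432 and 5.521 CPM in Ctrl and 8.619, 9.772 and 9.363 CPM in l-FA, a rise of 0.66 (SE 0.10, adjusted p = 0.00204, edgeR). Phc1 rose by 0.33 (adjusted p = 0.00502). Phc3 measured 6.931, 7.611 and 22.59 CPM in Ctrl and 10.24, 11.47 and 8.462 CPM in l-FA. On the log2 scale the change was -0.30 with all libraries and 0.46 without Ctrl 3, the one high library, so its direction rested on that library. Phc2 (-0.09) and Scmh1 (0.10) were not called.

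PR-DUB removes the ubiquitin that PRC1 places on H2A, through the enzyme BAP1 and an ASXL cofactor. Asxl1 measured 50.65, 51.72 and 52.7 CPM in Ctrl and 40.95, 39.39 and 43.01 CPM in l-FA, and fell by 0.33 (SE 0.048, adjusted p = 0.00155, edgeR). Asxl2 measured 27.93, 14.74 and 26.15 CPM in Ctrl and 23.48, 28.32 and 28.69 CPM in l-FA, Ctrl 2 being low, and was not called (0.23, adjusted p = 0.467). Without Ctrl 2 its log2 fold change was -0.01. Bap1 was not called, with an interval of 2 standard errors from -0.06 to 0.05 around -0.01.

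**Figure D4:**
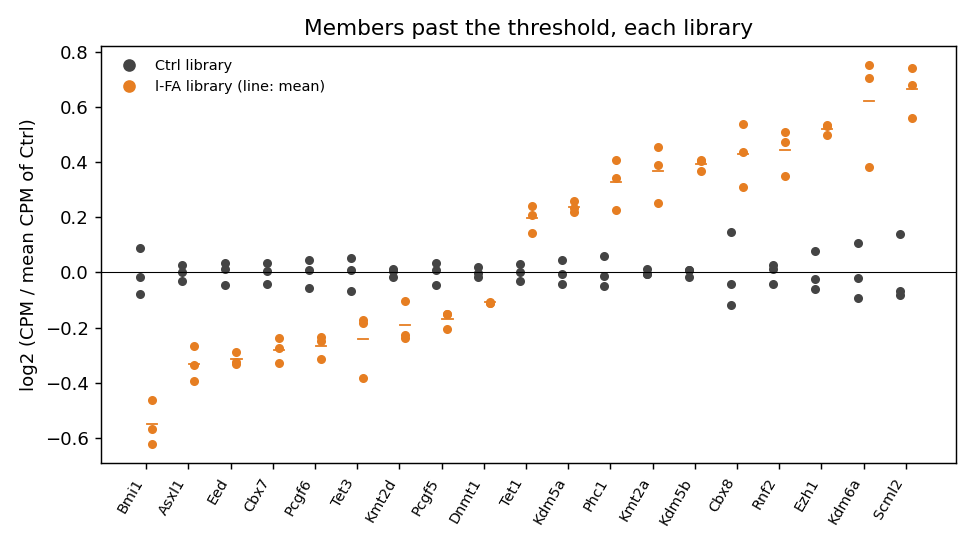
Level of the 19 called regulators in each library, as log2 of CPM over the Ctrl mean (vertical axis; Ctrl in grey, l-FA in orange, lines at the l-FA mean). For each of the 19 the l-FA libraries lie entirely above or entirely below the Ctrl libraries. The 19 were called on these same libraries, so this is no independent result, and 60.3% of all genes tested separate in this way.

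On the Trithorax side, Kmt2a, needed for HSC maintenance and often rearranged in leukemia, measured 54.2, 54.88 and 54.21 CPM in Ctrl and 71.34, 74.49 and 64.79 CPM in l-FA. It rose by 0.37 (SE 0.057, adjusted p = 0.00201, edgeR). Kmt2d, an enhancer methyltransferase, fell by 0.19 (SE 0.049, adjusted p = 0.0172), a call that was lost with total-count scaling and without Ctrl 1, l-FA 2 or l-FA 3 (adjusted p = 0.0513, 0.0727 and 0.0657). Per kilobase, Kmt2a held 36.7% ± 0.62 of the level of Kmt2a to Kmt2d in Ctrl and 44.5% ± 1.4 in l-FA, and Kmt2d 32.2% ± 0.89 and 26.6% ± 1.5 (n = 3, SD). Kmt2b (-0.07), Kmt2c (0.06) and Setd1b (0.02) were not called, and neither was Dot1l (-0.04), the H3 lysine 79 methyltransferase.

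Setd1a and Men1 had a library apart. Setd1a, a methyltransferase of the SET1 complex, measured 4.482, 4.341 and 8.332 CPM in Ctrl and 8.619, 8.775 and 8.362 CPM in l-FA. Ctrl 3 was at the level of l-FA, and the log2 fold change was 0.58 (SE 0.25, adjusted p = 0.10, edgeR) with it and 0.95 (SE 0.099, adjusted p = 0.00138) without it. DESeq2 called it with all libraries (adjusted p = 0.0317). Men1, which encodes menin, the cofactor that tethers KMT2A, measured 82.22 to 133.1 CPM in Ctrl and 91.96, 176.9 and 111.8 CPM in l-FA, and was not called (0.27, adjusted p = 0.452).

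In 8 of the 43, 1 library lay 1.5-fold or more away from each of the other libraries of its group: Dnmt3a, Suz12, Pcgf2, Cbx6, Phc3, Asxl2, Men1 and Setd1a. These were 18.6% of the 43, against 18.7% of all genes tested. Among genes averaging 100 counts or more, a library apart was seen in 7 of the 42 regulators (16.7%) and in 7.09% of all, a difference that was not tested. None of the 8 was called. A Ctrl library was apart in 7 of the 8 genes, and an l-FA library in Men1 and, beside Ctrl 2, in Dnmt3a.

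**Figure D5:**
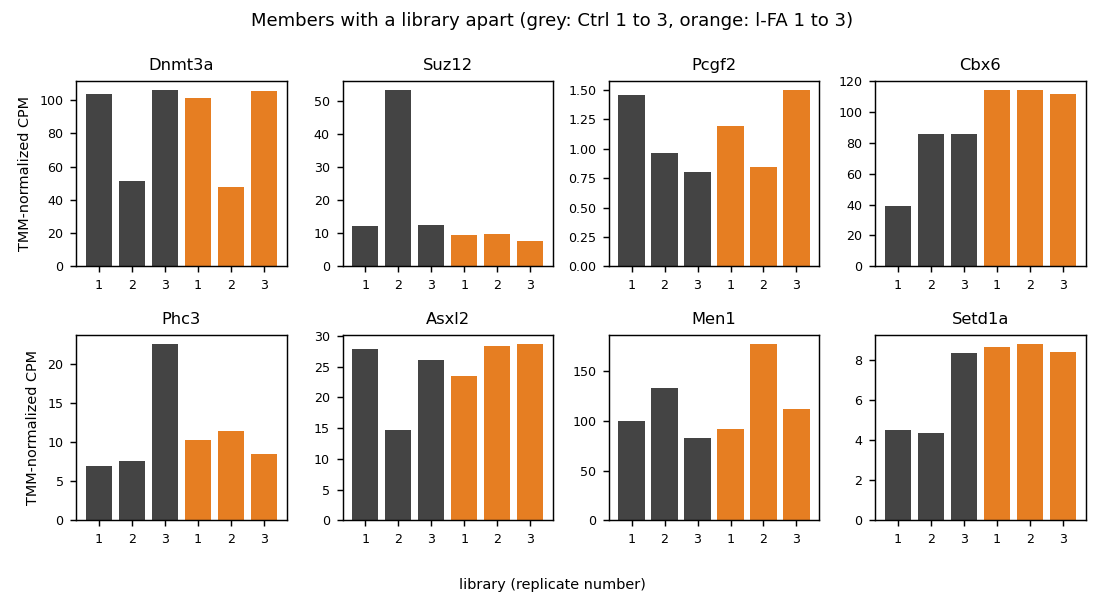
CPM in each library (bars, vertical axis from 0, one panel per gene; Ctrl 1 to 3 in grey, l-FA 1 to 3 in orange) for the 8 regulators with a library 1.5-fold or more away from the rest of its group. For Dnmt3a the second library of each group is low (51.51 and 47.47 CPM), and for Suz12 the second Ctrl library is high (53.33 CPM).

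The KDM5 enzymes remove methyl groups from H3 lysine 4. Kdm5b rose by 0.39 (SE 0.029, adjusted p = 0.00011, edgeR), from 92.35 to 94.06 CPM in Ctrl to 120.6 to 124.0 CPM in l-FA. Kdm5a rose by 0.24 (SE 0.036, adjusted p = 0.00181), and Ccdc77, which overlaps it, rose by 0.42 (adjusted p = 0.0114). The X-linked Kdm5c (0.05) and its Y-linked paralog Kdm5d (0.06, adjusted p = 0.352) were not called.

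The KDM6 enzymes remove methyl groups from H3 lysine 27. Kdm6a (chromosome X, 18028814 to 18146175), also called UTX, measured 31.68, 36.34 and 33.28 CPM in Ctrl and 56.86, 55.04 and 43.96 CPM in l-FA, and rose by 0.62 (SE 0.11, adjusted p = 0.00336, edgeR). Uty, its Y-linked paralog, rose by 0.51 (SE 0.058, adjusted p = 0.000559). Kdm6b measured 5.837, 6.378 and 7.228 CPM in Ctrl and 6.619, 5.485 and 7.911 CPM in l-FA, with overlapping groups and no call (0.04, adjusted p = 0.849).

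Ratios between 8 pairs of paralogs or partner genes were compared with an exact permutation test over the 6 libraries, whose smallest 2-sided p is 0.1, so that no pair could reach 0.05. On the log2 scale the ratio changed by 0.55 for Ezh1 over Ezh2, by -0.71 for Cbx7 over Cbx8, by -0.62 for Ring1 over Rnf2 and by -0.61 for Asxl1 over Asxl2, each with exact p = 0.1 (0.2 adjusted over the 8 pairs). For these 4 pairs the ratios of the groups did not overlap, but without Ctrl 2, the library in which Asxl2 was low, the change for Asxl1 over Asxl2 was only -0.31. The exact p was 0.2 (0.267 adjusted) for Bmi1 over Pcgf2 (-0.69) and for Kdm6b over Kdm6a (-0.58), 0.5 for Dnmt3a over Dnmt3b (-0.12) and 0.7 for Tet2 over Tet3 (-0.05). Per kilobase, Cbx7 stood at 0.704 of Cbx8 in Ctrl and 0.43 in l-FA with the gene lengths implied by the table, but at 1.23 and 0.75 with the longest annotated transcript, so the order of these levels in Ctrl depended on the length used.

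Reads of overlapping genes may be shared, since the strand setting of the counting is not given in the sources used here. Another listed gene overlapped 18 of the 43 regulators and 10 of the 19 called ones. The neighbours with the most counts were Apobec3 beside Cbx7 (0.17, adjusted p = 0.563, edgeR), Trmt1l beside Rnf2 and Ccdc77 beside Kdm5a. Apobec3 had 3215 to 5729 counts against 538 to 652 of Cbx7, and the part of shared reads in the Cbx7 values was not tested. Beside Asxl1, 2500004C02Rik had 122 to 160 counts against 790 to 1050 of Asxl1, and the neighbours 1110002L01Rik and Gm31332 of Asxl2 had 111 to 206. Beside Setd1a, 9430064I24Rik had 52 to 94 counts against 81 to 181 of Setd1a (0.42, adjusted p = 0.0636).

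Other genes of the same systems, from a list of 85 cofactors and related enzymes of which 81 were tested, were called at about the rate of the whole table. Of the 81, 23 were higher and 19 lower in l-FA (51.9% called, against 50.5% of all genes tested), with a signed median of 0.00. With total-count scaling the split was 32 higher and 15 lower. The DOT1L partners and other histone demethylases had 6 higher and 0 lower of 16, and the PRC2 accessory genes 0 higher and 3 lower of 8, each 37.5% called and so below that share, and no difference between lists was tested. The PRC1 accessory genes had 4 higher and 6 lower of 18, the COMPASS accessory genes 5 and 5 of 15, the PR-DUB accessory genes 2 and 2 of 6, and the genes around DNA methylation 6 and 3 of 18.

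The largest called fall among them was that of Idh1, the cytosolic isocitrate dehydrogenase that makes 2-oxoglutarate, the cofactor of TET and KDM enzymes. It measured 148.3, 143.9 and 142.0 CPM in Ctrl and 80.15, 78.88 and 83.12 CPM in l-FA, and fell by 0.84 (SE 0.035, adjusted p = 1.45e-05, edgeR). Idh2, the other isocitrate dehydrogenase gene of the list, was more abundant, with means of 463.8 CPM in Ctrl and 455.6 CPM in l-FA. It was not called (log2 fold change -0.03, adjusted p = 0.364, edgeR). Paxip1, a subunit of the KMT2C and KMT2D complexes, fell by 0.74, and Aebp2, a PRC2 accessory subunit, fell by 0.55 (adjusted p = 0.00228). Sfmbt1, Mbd6 and Rbbp5 had fitted changes of about that size but were not called (adjusted p = 0.0853, 0.0532 and 0.0603, edgeR). Beside Pcgf3, the largest called rises among related genes averaging 100 counts or more were those of Gadd45g, linked to DNA demethylation, by 0.71 (adjusted p = 0.00244), and Kdm3a, an H3 lysine 9 demethylase, by 0.61. With fewer counts, Sfmbt2, a PRC1-associated protein, rose by 1.302 (adjusted p = 0.0118, edgeR), with l-FA 2 apart at 4.288 CPM against 2.238 and 2.754 CPM in l-FA 1 and l-FA 3. Dnmt3l, a cofactor of the de novo methyltransferases, rose by 0.86 (adjusted p = 0.0422, mean count 14.2). In the other direction, Zbtb33, from the genes around DNA methylation, fell by 0.81 (adjusted p = 0.00822, mean count 83.7). In each of these genes except Idh2 the groups did not overlap.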

How the data were processed

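RNA of sorted HSCs was measured in 3 Ctrl and 3 l-FA libraries of cDNA amplified with SMART-Seq HT, without molecular identifiers, so counts carry more than counting error. Raw whole-number counts (19287735 to 20380610 per library) were deposited for each gene, beside the authors' FPKM values, which divide those counts by gene length and total count. The submitters' processing notes name GRCm39, HISAT2, SAMtools 1.3.1, StringTie and edgeR, with no roles. Table coordinates are given as listed and are not those of GRCm38.

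Samples were grouped by their labels. The test was run in edgeR 4.0.16 (R 4.3.3, TMM, filterByExpr, glmQLFit, glmQLFTest), with Benjamini-Hochberg adjustment over 16520 genes. CPM were TMM-scaled. FPKM served only to recover gene lengths for levels per kilobase. The code was tested on simulated data.

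The members, gene lists and promoter motifs were chosen with earlier results of these data known. Values per library are given for called members with a log2 change of at least 0.5, for the 8 pairs and for the DNMT and TET genes. Of related genes, the 3 largest called rises and 3 largest called falls with a mean count of at least 100, Kdm5d, Uty and genes of the same complex are named. Eed, Suz12, Cbx6, Phc3, Kmt2a, Kdm5b, Men1, Setd1a, Sfmbt1, Sfmbt2, Mbd6, Rbbp5, Dnmt3l, Zbtb33, Idh2 and the overlapping genes were chosen after their values were seen. Alternatives were DESeq2 1.42.0, scaling by RLE, upper quartile or total count, testing without the low-count filter or with a minimum of 10 counts per library, a block for replicate number, and omission of each library in turn. Total-count scaling, the longest transcript as length and the list without members with a library apart were added after seeing the data.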

Additional observations from a re-analysis of the deposited data

How the results depend on the processing

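The number of regulators called was 16 to 21 of 43 over the 13 alternatives to the edgeR test, and no called regulator changed direction in any of them. Of the calls, 14 of 19 passed in every alternative, and the others were Dnmt1 (12 of 13), Tet1 and Tet3 (10 of 13 each), Kmt2d (9 of 13) and Pcgf5 (5 of 13). With total-count scaling, added after seeing the data, the median of all genes tested moved to 0.08, 5 regulators were called lower and 12 higher, and the related genes split 32 higher to 15 lower. Uncalled regulators that changed sign with that scaling were Bap1 (0.071), Dnmt3a (0.038), Dot1l (0.038), Ezh2 (0.054), Kmt2b (0.008) and Pcgf1 (0.021), and Bap1 was at 0.017 with upper-quartile scaling. Leaving out each library in turn, the regulators past 2-fold numbered 0 to 1, the 1 being Suz12 without Ctrl 1 or without Ctrl 3, and other uncalled regulators changed sign, with log2 fold changes of -0.309 to 0.260 for Dnmt3a, -0.025 to 0.014 for Bap1, -0.032 to 0.007 for Ezh2, -0.153 to 0.027 for Jarid2, -0.111 to 0.022 for Pcgf1, -0.061 to 0.414 for Pcgf2, -0.589 to 0.462 for Phc3, -0.014 to 0.389 for Asxl2, -0.039 to 0.232 for Kmt2c, -0.033 to 0.475 for Men1, -0.060 to 0.099 for Setd1b, -0.064 to 0.022 for Dot1l, -0.030 to 0.120 for Kdm5c and -0.086 to 0.176 for Kdm6b. The l-FA minus Ctrl change in the log2 ratio of Dnmt3a over Dnmt3b then ranged from -0.498 to 0.261. For Tet2 over Tet3 that difference between groups ranged from -0.117 to 0.042, and for Asxl1 over Asxl2, with no change of sign, from -0.790 to -0.314. The cause of these changes was not tested. Over all genes tested, same-numbered libraries did not deviate together (correlations of 0.02, -0.01 and -0.05), although Dnmt3a was low in the second library of each group. Correlations over all genes cannot exclude a pairing that touches only some of them, so whether the numbers pair libraries stayed unknown. With the replicate number as a block 17 regulators were called, without Pcgf5 and Tet1, and the ratios kept their values with a smallest possible p of 0.25. Leaving out the 8 regulators that had a library apart removed no call, since none of them was called. With 3 libraries per group, the wide intervals of those 8 genes limit what could be called, and counts near those of Pcgf2 (mean 22.3) limit it further.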
